A study of Mus musculus with 26 samples.

Results

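The Myc, Max and Mxd network was described here by the 8 of its genes named Myc, Mycn, Mycl, Max, Mga, Mnt, Mxd1 and Mxi1, out of 18198 genes in the deposited expression table. All 8 were found by symbol and passed the filter on low values. The 26 mouse libraries fell into 13 groups of 2. Embryonic fibroblasts (MEF) at passage 2 were grown in fetal bovine serum. Embryonic stem cells (ESC), of a CBA/CaJ X C57BL/6J cross at passages 20 to 24, and induced pluripotent stem cells (iPSC), picked as colonies and used at passages 5 to 8, were both kept in N2B27 medium with 2i and LIF. The reprogramming groups were MEF infected with retrovirus made in PlatE cells. OSK libraries (Pou5f1, Sox2 and Klf4, without Myc in the name) were taken at days 0, 1, 3, 5 and 7, OSK-cJun libraries with added Jun at days 0, 1, 3 and 7, and OSK-shSap30 libraries with a lentiviral hairpin against Sap30 on day 7. Infected cells were in iCD1 or a serum-based ESC medium with LIF, and which sample had which medium is not given. No strain is given for MEF, iPSC or infected cells. Strain, passage and cell type cannot be told apart between ESC and the other groups, nor medium and cell type between MEF and the pluripotent cells. None of the 13 groups has a control hairpin. Loss of Sap30 and lentiviral infection therefore cannot be told apart between OSK-shSap30 and OSK at day 7. The OSK-shSap30 libraries also carry a separate run of sample numbers from all others. Whether they were made in a separate batch is not given, and such a difference could not be told apart from the hairpin.

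Myc, Mycn and Mycl encode basic helix-loop-helix leucine zipper proteins that bind E-box DNA as dimers with Max and raise transcription of genes for ribosome synthesis, metabolism and the cell cycle. Mnt and the Mxd proteins, Mxi1 among them, dimerise with the same Max and recruit Sin3 corepressors to similar sites, so the network is read as a balance between activating and repressing partners. Mga, a very large protein with a T-box as well as the dimerisation domain, takes Max into the polycomb complex PRC1.6, which silences germline genes in embryonic stem cells. Myc is a classical accelerator of reprogramming, and Myc and Mycn support self-renewal of pluripotent cells.

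Coordinates are those of GENCODE M21 on GRCm38 (mm10), in which each of the genes is protein coding. Myc (ENSMUSG00000022346) lies at chromosome 15:61985391-61990374 on the plus strand, Mycn (ENSMUSG00000037169) at chromosome 12:12936093-12941914 on the minus strand, and Mycl (ENSMUSG00000028654) at chromosome 4:122995652-123002485 on the plus strand. Max (ENSMUSG00000059436) lies at chromosome 12:76937269-76962201 on the minus strand and Mga (ENSMUSG00000033943) at chromosome 2:119897228-119969581 on the plus strand. Mnt (ENSMUSG00000000282) lies at chromosome 11:74830920-74845725 on the plus strand, Mxd1 (ENSMUSG00000001156) at chromosome 6:86647042-86669161 on the minus strand, and Mxi1 (ENSMUSG00000025025) at chromosome 19:53310518-53375810 on the plus strand. Exons of Mxi1 overlap those of Gm10197 on the opposite strand over 194 bases. The library kit does not mark strand, so reads from these overlapping exons cannot be told apart.

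Promoters of Mycn, Mga and Mnt, 3 genes that rose from MEF or from OSK day 7 to iPSC, are shown because each held a searched motif, given in capitals. RefSeq promoter windows of GRCm38.p6 were at hand for 7 of the 8 genes, 9 windows in all, and the 250 bases before each start were searched on both strands. Only bases ahead of every annotated start are printed, 5′ to 3′ along the gene. They span chr12:12941915-12942086 on the minus strand for Mycn, chr2:119896978-119897227 on the plus strand for Mga and chr11:74830674-74830919 on the plus strand for Mnt.
Mycn: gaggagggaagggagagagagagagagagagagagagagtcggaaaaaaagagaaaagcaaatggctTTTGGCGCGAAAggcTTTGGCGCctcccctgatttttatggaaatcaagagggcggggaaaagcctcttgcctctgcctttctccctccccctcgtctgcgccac
Mga: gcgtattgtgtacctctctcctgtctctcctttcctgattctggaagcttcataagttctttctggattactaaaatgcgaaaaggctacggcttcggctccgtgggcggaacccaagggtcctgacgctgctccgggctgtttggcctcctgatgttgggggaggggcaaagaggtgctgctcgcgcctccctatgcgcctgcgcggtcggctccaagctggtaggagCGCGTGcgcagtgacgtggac
Mnt: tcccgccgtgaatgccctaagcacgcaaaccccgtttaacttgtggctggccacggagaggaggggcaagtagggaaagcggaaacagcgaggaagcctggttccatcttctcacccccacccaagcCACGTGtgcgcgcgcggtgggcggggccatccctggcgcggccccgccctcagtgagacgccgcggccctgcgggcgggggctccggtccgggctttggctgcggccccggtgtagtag
The Mnt window held the canonical E-box CACGTG, the site bound by Max dimers, 123 bases before its RefSeq start, and it was the only one of the 9 windows to do so, against 6.02% of 32851 promoters. The variant CACGCG stood in the windows of Mga (on the opposite strand, so it reads CGCGTG, 21 bases before the start) and Mycl (20 bases before the start), against 7.62% of promoters. The Mycn window held TTTNGCGC, the form of E2F sites, at 3 positions that partly overlap, against 1.13% of promoters with any. The E2F form was chosen after the Mycn sequence had been seen. Such matches describe letters in a window and are not evidence of binding.

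The deposited values are a normalised score with the same distribution in every library, so sequencing depth could not be read from them, and the highest value in each library was 21544. Group differences were tested with limma on log2(value + 1) over 16038 genes. A gene was called, that is said to rise or fall, where its log2 fold was 1 or more in size and its Benjamini-Hochberg adjusted p was below 0.05. Every adjusted p below is limma's, and folds on this scale understate changes of genes with low values. The labels do not say that replicates were separate cultures, so p-values measure only the spread between these libraries, which may be technical. Replicates correlated at 0.9253 (MEF) to 0.9602 (iPSC). The labels were checked on other genes. Jun stood at 4616 to 8981 in OSK-cJun libraries, against 321 to 1010 in OSK libraries. Sap30 stood at 20 and 41 in OSK-shSap30, against 301 and 378 in OSK at day 7. The summed level of 8 pluripotency markers was 25 and 9 in MEF and 25345 to 25647 in the 4 pluripotent libraries. This sum includes the delivered Pou5f1 and Sox2, and it was 28502 and 30525 at OSK day 1. It therefore does not separate pluripotent from infected libraries. Nanog, which was not delivered, stood at 4616 to 5023 in the pluripotent libraries and at 179 or below in all others. The sum of 8 fibroblast markers was 79668 and 83452 in MEF, then 168 and 639 in ESC, and 7596 and 14150 in iPSC. Replicate 1 of OSK at day 5 stood apart, with Pou5f1 at 656 against 21544 in replicate 2 and a fibroblast sum of 30592 against 12026. In bulk samples, fewer cells of a type and less RNA per cell cannot be told apart.

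Mycn, Mycl and Mga were called higher in both pluripotent groups than in MEF. In ESC against MEF, 4 of the 8 genes were called against 43.0% of all tested genes, with Mycn, Mycl and Mga higher and Myc lower. In iPSC against MEF, 4 were called against 40.0%, with Mycn, Mycl, Mga and Mxi1 higher. Both shares are near the background, so the counts say nothing particular to the network. Between iPSC and ESC 1 gene (Myc) was called against 6.22%.

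**Figure D1:**
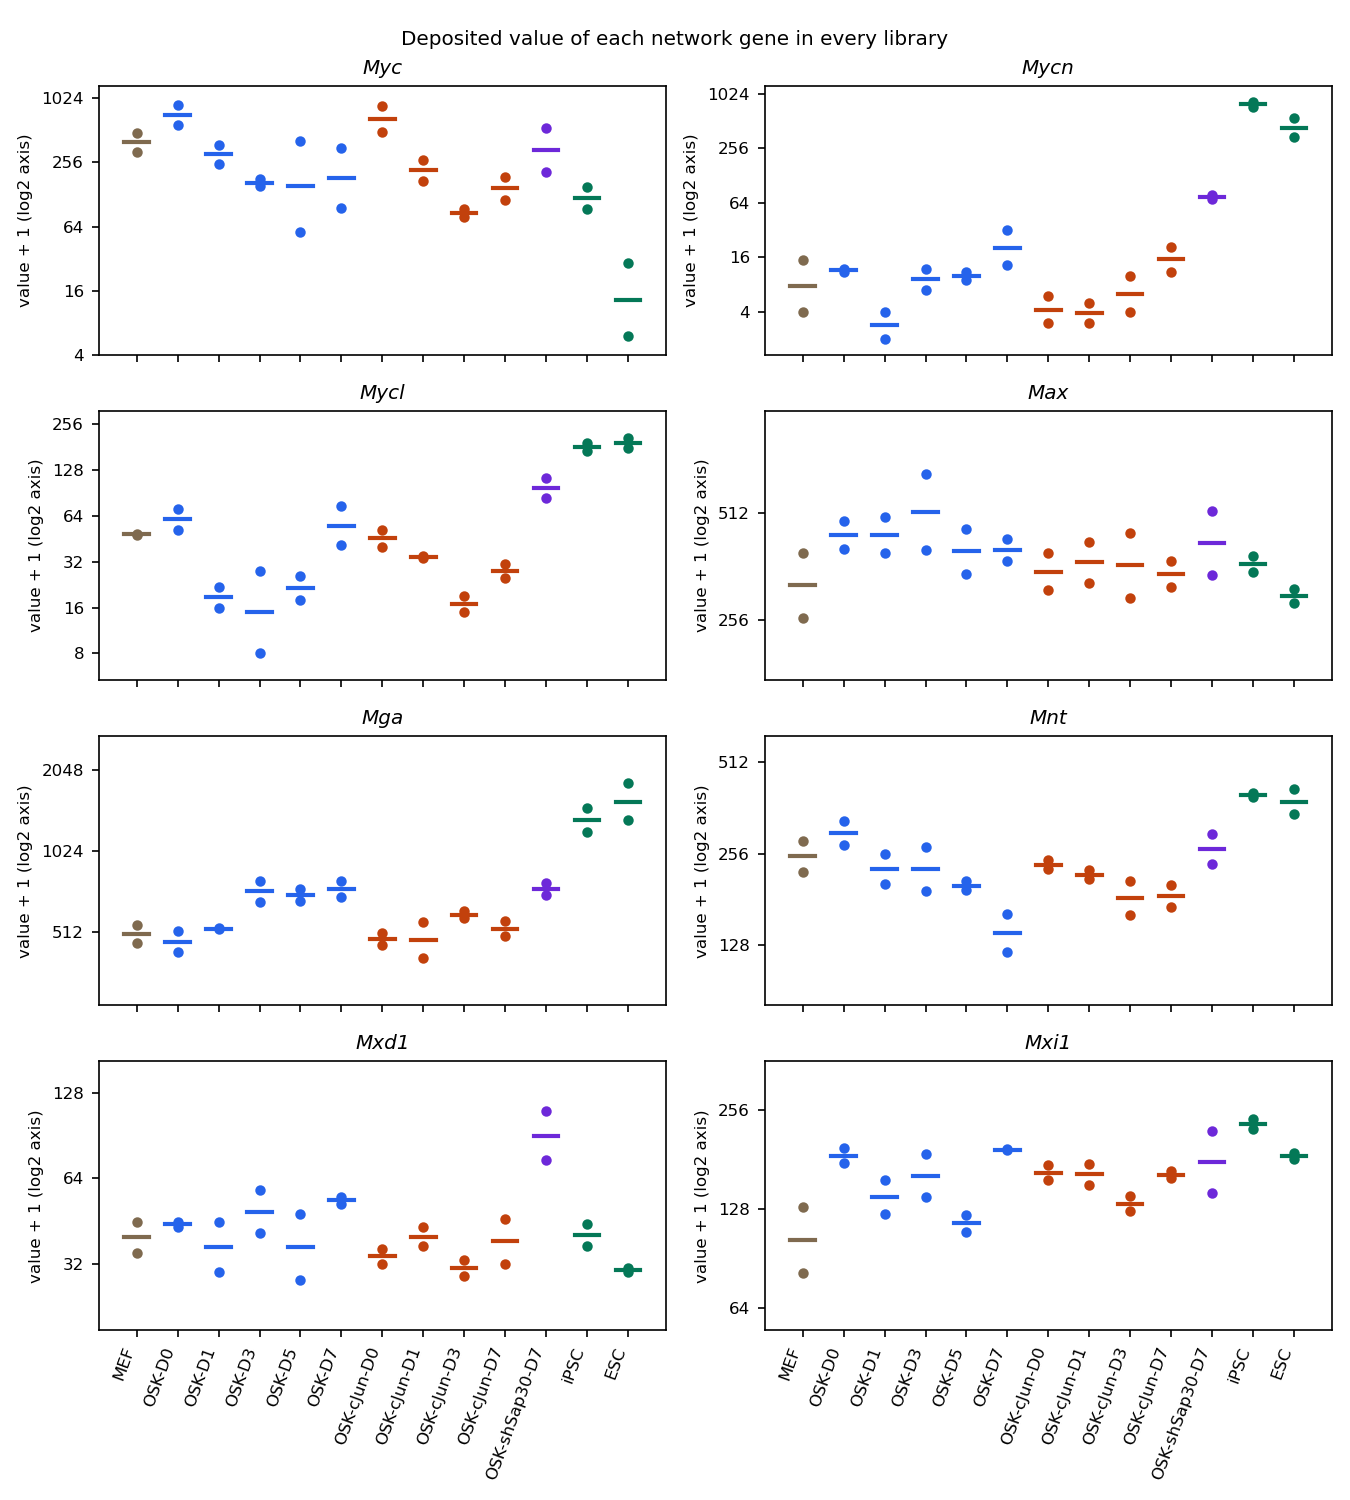
Deposited value plus 1 (log2 axis, range differs by panel) of each network gene in the 13 groups; points are the 2 libraries of a group and bars their mean on the log scale. Mycn sits between 339 and 825 in the iPSC and ESC libraries and at 77 or below in all 22 others, while Max stays within 259 to 660 throughout.

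Myc, the founding member, was high in fibroblasts and low in embryonic stem cells. Its values were 485 and 320 in MEF, then 92 and 151 in iPSC, and 5 and 28 in ESC. The 3 groups did not overlap. Myc fell by 4.90 (SE 0.83) on the log2 scale in ESC against MEF (adjusted p 9.4e-05). The iPSC value was 1.73 (SE 0.83) below that of MEF on that scale, which did not pass (adjusted p 0.0912), although it did without the OSK-D5 libraries (adjusted p 0.0437). Myc was higher in iPSC than in ESC by a log2 fold of 3.17 (SE 0.83, adjusted p 0.0259). That call was lost without iPSC replicate 1 (3.53, adjusted p 0.0617), iPSC replicate 2 (2.82, adjusted p 0.216) or ESC replicate 1 (2.04, adjusted p 0.319). The higher fibroblast marker sum of iPSC given above moves with this difference, and its part in the result was not tested.

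Along the OSK course, Myc stood at 888 and 574 on day 0, the highest group of the 13, then at 372 and 249 on day 1 and 152 and 179 on day 3. At day 5 it was 56 and 406, and at day 7 it was 349 and 95. Both day 3 libraries lay below both day 0 libraries, but replicates at days 5 and 7 were far apart, by up to 7.14 times. The lower of the day 5 values belongs to the replicate that stood apart in Pou5f1. The log2 difference from day 0 was -1.23 on day 1, -2.11 on day 3, -2.23 on day 5 and -1.96 on day 7 (SE 0.83 each, adjusted p 0.445, 0.0794, 0.0568 and 0.082), and 0 of these was called. Without the OSK-D5 libraries the decreases at day 3 (adjusted p 0.034) and day 7 (adjusted p 0.0364) were called, and with a pseudocount of 10 those at days 3, 5 and 7 were called (adjusted p 0.0425, 0.0317 and 0.0467). Leaving out day 5 replicate 2 gave a fold of -3.65 on day 5, but this keeps only the replicate that stood apart. Leaving out day 7 replicate 1, the higher value, gave -2.90 on day 7. The opposite choice keeps 406 on day 5 and 349 on day 7, which lie closer to the day 0 values. The size of the fall at days 5 and 7 therefore depends on which replicate is kept. Day 0 itself was 0.86 (SE 0.83) above MEF, with adjusted p 0.617.

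With added Jun, Myc stood at 857 and 495 on day 0, 267 and 172 on day 1, 92 and 77 on day 3, and 186 and 113 on day 7. The day 0 libraries lay above all later ones. OSK-cJun at day 7 was lower than at day 0 by a log2 difference of -2.16 (SE 0.83, adjusted p 0.0716), which was called without the OSK-D5 libraries (adjusted p 0.0298) and with a pseudocount of 10 (adjusted p 0.0378). OSK-cJun and OSK differed in Myc by -0.13, -0.50, -0.96 and -0.33 on the log2 scale at days 0, 1, 3 and 7, and adjusted p was 0.594 or higher. These courses share the infection protocol but no libraries. In OSK-shSap30 Myc was 206 and 533, which overlaps the OSK day 7 values.

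Mycn, the paralog used in neural and pluripotent cells, was high in the pluripotent libraries and low elsewhere. It stood at 825 and 734 in iPSC, 339 and 543 in ESC, and 14 and 3 in MEF. Mycn rose by a log2 fold of 5.79 (SE 0.64) in ESC (adjusted p 7.12e-07) and 6.65 (SE 0.64) in iPSC (adjusted p 2.69e-07), both against MEF. Both iPSC libraries exceeded both ESC libraries, but the fold of 0.86 (SE 0.64) did not pass (adjusted p 0.552).

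Through the OSK course Mycn stayed between 1 and 31. It was 11 and 10 on day 0, 3 and 1 on day 1, 6 and 11 on day 3, 10 and 8 on day 5, and 12 and 31 on day 7. At day 1 both libraries lay below every other OSK library, with a fold of -2.02 (SE 0.64) from day 0 (adjusted p 0.062). The fold of day 7 over day 0 did not pass (0.83, SE 0.64, adjusted p 0.363), and iPSC were higher than OSK at day 7 by 5.26 (SE 0.64, adjusted p 6.22e-06). In the OSK-cJun course it was 5 and 2 on day 0, 2 and 4 on day 1, 9 and 3 on day 3, and 10 and 20 on day 7. The day 7 against day 0 rise there (1.84, SE 0.64, adjusted p 0.047) rests on values of 20 or less. It was lost with a pseudocount of 0.1 (adjusted p 0.058) or 10 (adjusted p 0.0756), without the filter (adjusted p 0.0515) and without any 1 of its 4 libraries (adjusted p 0.0533 to 0.292). OSK-shSap30 on day 7 had 77 and 70, above all other infected libraries. Its fold over OSK at day 7 was 1.87 (SE 0.64, adjusted p 0.0601), and it was called with a pseudocount of 10 (1.47, adjusted p 0.00744).

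Mycl, the third activating paralog, was low in the middle of the OSK course and was also high in pluripotent cells. It stood at 47 and 48 in MEF, then 170 and 191 in iPSC, and 208 and 179 in ESC. Mycl rose by 2.00 (SE 0.44, adjusted p 0.000852) in ESC and by 1.90 (SE 0.44, adjusted p 0.0015) in iPSC against MEF. Its OSK values were 70 and 51 on day 0, 21 and 15 on day 1, 7 and 27 on day 3, 25 and 17 on day 5, and 40 and 73 on day 7. All libraries of days 1, 3 and 5 lay below those of days 0 and 7. Mycl fell by 1.70 on day 1 (adjusted p 0.022), by 2.02 on day 3 (adjusted p 0.00241) and by 1.49 on day 5 (adjusted p 0.0173), SE 0.44 each. The call at day 1 was lost without any 1 of its 4 libraries (adjusted p 0.0507 to 0.183), that at day 3 without day 3 replicate 1 (-1.12, adjusted p 0.066) or with the spread of the compared groups alone (adjusted p 0.112), and that at day 5 without day 0 replicate 1 (-1.27, adjusted p 0.129) or day 5 replicate 2 (-1.22, adjusted p 0.113). Day 7 was within 0.14 of day 0 (log2 difference -0.14, adjusted p 0.864). The rise from OSK at day 7 to iPSC was 1.72 (SE 0.44, adjusted p 0.00443) and was lost without day 7 replicate 1 (1.29, adjusted p 0.0637). OSK-cJun libraries went from 39 and 51 on day 0 through 34 and 33 and then 14 and 18 to 24 and 30 on day 7, where the difference from OSK was -0.98 (SE 0.44, adjusted p 0.138). OSK-shSap30 had 112 and 83, above both OSK day 7 libraries, with a fold of 0.82 (SE 0.44, adjusted p 0.224).

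Per kilobase of exon the 3 activating paralogs were compared with each other. How the score was made is not given. Levels and shares per kilobase, here and below, therefore hold only if the score was not already corrected for gene length. Myc made up 91.8% and 90.2% of their sum in the MEF libraries and 94.1% and 93.1% at OSK day 0. In ESC it made up 1.18% and 4.7%, and in iPSC 10.4% and 17.1%. Mycn took most of the sum there, with 65.9% and 75.1% in ESC and 76.7% and 68.4% in iPSC, and Mycl held 33% and 20.2% in ESC.
At OSK day 7 the replicates disagreed, with Myc at 90.5% and 56% and Mycl at 6.98% and 28.9%. In OSK-shSap30 Mycn was 18.4% and 8.93% of the sum, against 2.56% and 15.1% in OSK at day 7, and these ranges overlap. The summed level per kilobase was 194 and 131 in MEF, then 348 and 227 at OSK day 0, 59.5 and 75.9 at OSK day 3, 326 in both iPSC libraries and 156 and 219 in ESC. The sum in ESC thus overlapped that in MEF although its make-up did not.

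**Figure D2:**
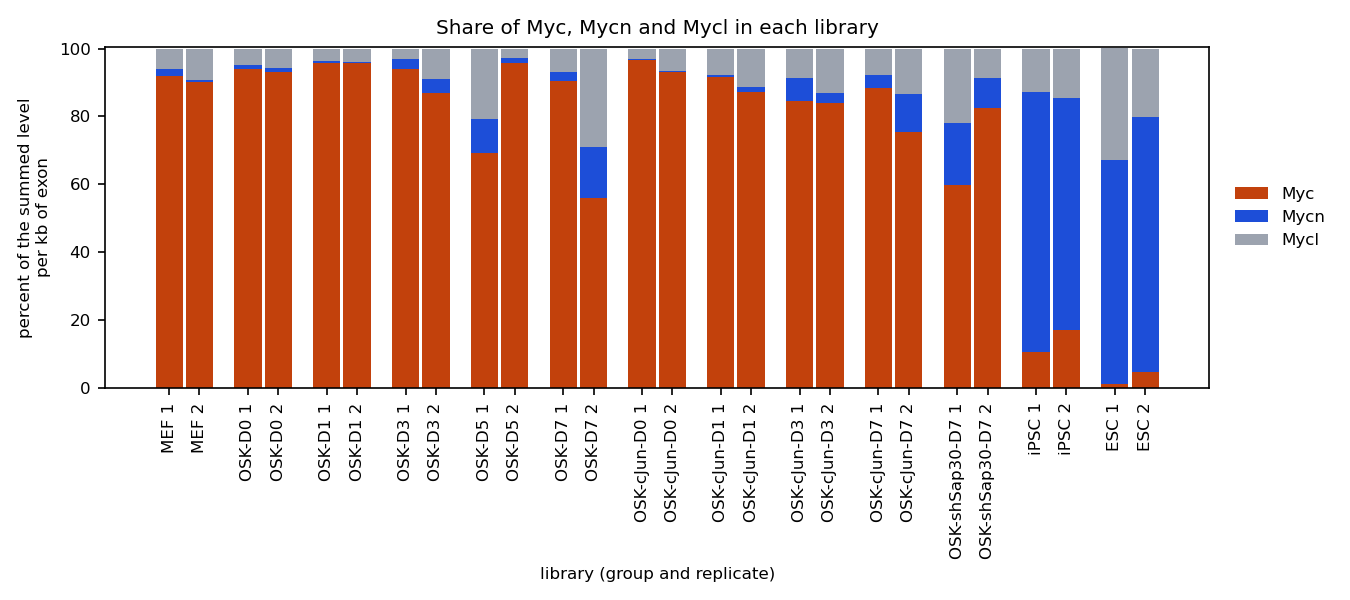
Each bar is 1 library and shows the percent of the summed level per kilobase of exon held by Myc, Mycn and Mycl. Myc holds 91.8% and 90.2% in MEF but 1.18% and 4.7% in ESC, where Mycn holds 65.9% and 75.1%.

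Max, the shared partner of the others, was the steadiest of the 8 genes by the spread of its group means. That spread had an SD of 0.21 on the log2 scale, against 0.30 within groups. Max stood at 259 and 394 in MEF, then 349 and 387 in iPSC, 285 and 312 in ESC, and 486 and 404 at OSK day 0. MEF and ESC overlapped, as did each pair of neighbours in the order of the 13 group means, while iPSC lay above ESC and OSK day 0 above MEF without overlap. The ESC against MEF difference was -0.10 (SE 0.28, adjusted p 0.803), and over 15 comparisons the folds ran from -0.50 to 0.47 with the smallest adjusted p at 0.345. Per kilobase Max ranged from 72 to 183 in MEF and infected libraries and from 79.2 to 108 in pluripotent ones. Mxd1, by comparison, ranged from 3.82 to 15.4 per kilobase in the former.

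Mga, the scaffold that joins Max to PRC1.6, had the most reproducible pattern of the network, with a spread of 0.18 within groups on the log2 scale. It was 543 and 465 in MEF, then 1486 and 1206 in iPSC, and 1332 and 1831 in ESC. All 4 pluripotent libraries lay above all 22 others, which reached 791. Mga rose by 1.63 (SE 0.19, adjusted p 1.12e-06) in ESC and by 1.41 (SE 0.19, adjusted p 9.02e-06) in iPSC against MEF. Along the OSK course its values were 429 and 512 on day 0, 521 and 529 on day 1, 791 and 660 on day 3, 666 and 736 on day 5, and 791 and 686 on day 7. From day 3 on every library exceeded those of days 0 and 1. The log2 differences from day 0 were 0.62, 0.58 and 0.65 at days 3, 5 and 7 (SE 0.19, adjusted p 0.0227, 0.0307 and 0.0132), under the fold needed for a call. With added Jun, Mga was 560 and 491 on day 7, below both OSK day 7 libraries, with a difference of -0.49 (SE 0.19, adjusted p 0.0871). The interaction, the difference between the courses in the change from day 0 to day 7, did not pass (-0.53, SE 0.27, adjusted p 0.315). OSK-shSap30 had 774 and 700, like OSK at day 7. iPSC were above OSK at day 7 by 0.86 (SE 0.19, adjusted p 0.00146).

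Mnt, the broadly expressed repressor of the network, dipped late in the OSK course. It was 222 and 280 in MEF, then 404 and 394 in iPSC, and 344 and 416 in ESC. It stood at 327 and 273 at OSK day 0, 202 and 254 on day 1, 192 and 269 on day 3, 193 and 206 on day 5, and 161 and 120 on day 7. The day 7 libraries were below all other OSK libraries. Mnt fell by 1.10 (SE 0.21, adjusted p 0.000716) from day 0 to day 7, a call lost without day 0 replicate 1 (-0.97, adjusted p 0.0135) or day 7 replicate 2 (-0.89, adjusted p 0.018) because the fold then missed 1. It rose by 1.51 (SE 0.21, adjusted p 2.69e-05) from OSK day 7 to iPSC, while ESC and iPSC exceeded MEF by 0.60 (adjusted p 0.0243) and 0.68 (adjusted p 0.0135), under the fold needed. OSK-shSap30 on day 7 had 295 and 235, above both OSK day 7 libraries, by 0.92 (SE 0.21, adjusted p 0.00896). That fold reached 1.13 without OSK day 7 replicate 1 and 1.08 without OSK-shSap30 replicate 2, past the fold needed. Leaving out the other replicate of either group instead keeps values that lie closer together. OSK-cJun at day 7 had 200 and 169, 0.40 above OSK (SE 0.21, adjusted p 0.224), and the interaction was 0.75 (SE 0.30, adjusted p 0.185).

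Mxd1, a repressor associated with differentiation, was low everywhere, at 27 to 57 in every library outside OSK-shSap30. It was 44 and 34 in MEF, then 43 and 36 in iPSC, 30 and 29 in ESC, 54 and 51 at OSK day 7, and 73 and 109 in OSK-shSap30. The OSK-shSap30 libraries were the highest of the 26, but the fold of 0.75 (SE 0.32) over OSK at day 7 did not pass (adjusted p 0.121). Mxd1 was called in 0 of 15 comparisons, with folds from -0.66 to 0.75.

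Mxi1, another Mxd-type repressor, was 81 and 129 in MEF, then 240 and 224 in iPSC and 189 and 181 in ESC. MEF was the lowest group. Mxi1 rose by 1.17 (SE 0.23, adjusted p 0.000412) in iPSC against MEF, and was 0.84 (adjusted p 0.0113), under the fold needed, without MEF replicate 1. In ESC it was 0.85 (SE 0.23, adjusted p 0.00483) above MEF, and at OSK day 0, with 176 and 195, it was 0.85 (SE 0.23, adjusted p 0.0267) above MEF. Both of these reached 1.18 without MEF replicate 2, which keeps only the lower MEF value of 81. Leaving out MEF replicate 1 instead keeps 129, which lies closer to the ESC and OSK day 0 values. In the OSK course it was 123 and 156 on day 1, 188 and 138 on day 3, 108 and 122 on day 5 and 194 and 193 on day 7, with day 5 lowest (-0.69 from day 0, SE 0.23, adjusted p 0.0366).

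Within the reprogramming courses the counts of called network genes were near the share of all genes, so they say nothing particular to the network. Against OSK day 0, 1 of the 8 was called at day 1 (Mycl, against 6.30% of all genes), 1 on day 3 (Mycl, 17.2%), 1 on day 5 (Mycl, 19.7%) and 1 on day 7 (Mnt, 23.8%). OSK day 0 against MEF gave 0 (6.98%), with 1 gene at an unadjusted p below 0.05. From OSK day 7 to iPSC 3 were called (Mycn, Mycl and Mnt, all higher) against 30.3%. OSK-cJun day 7 against its day 0 gave 1 (Mycn) against 17.7%.
Jun and the Sap30 hairpin gave no called network gene by limma. With only 8 genes, and at most 11.8% of all genes called, this too says nothing particular to the network. OSK-cJun against OSK gave 0 at days 0, 1, 3 and 7, against 0.0748%, 1.98%, 7.54% and 11.8% of all genes, with 1, 0, 0 and 2 of the 8 at an unadjusted p below 0.05. OSK-shSap30 against OSK at day 7 gave 0 against 9.85%, with 3 at an unadjusted p below 0.05. The interaction of course and day gave 0 against 3.82%, with 1 at an unadjusted p below 0.05. OSK day 7 libraries enter the comparisons with Jun, with the hairpin and with iPSC, so these are not independent.

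**Figure D3:**
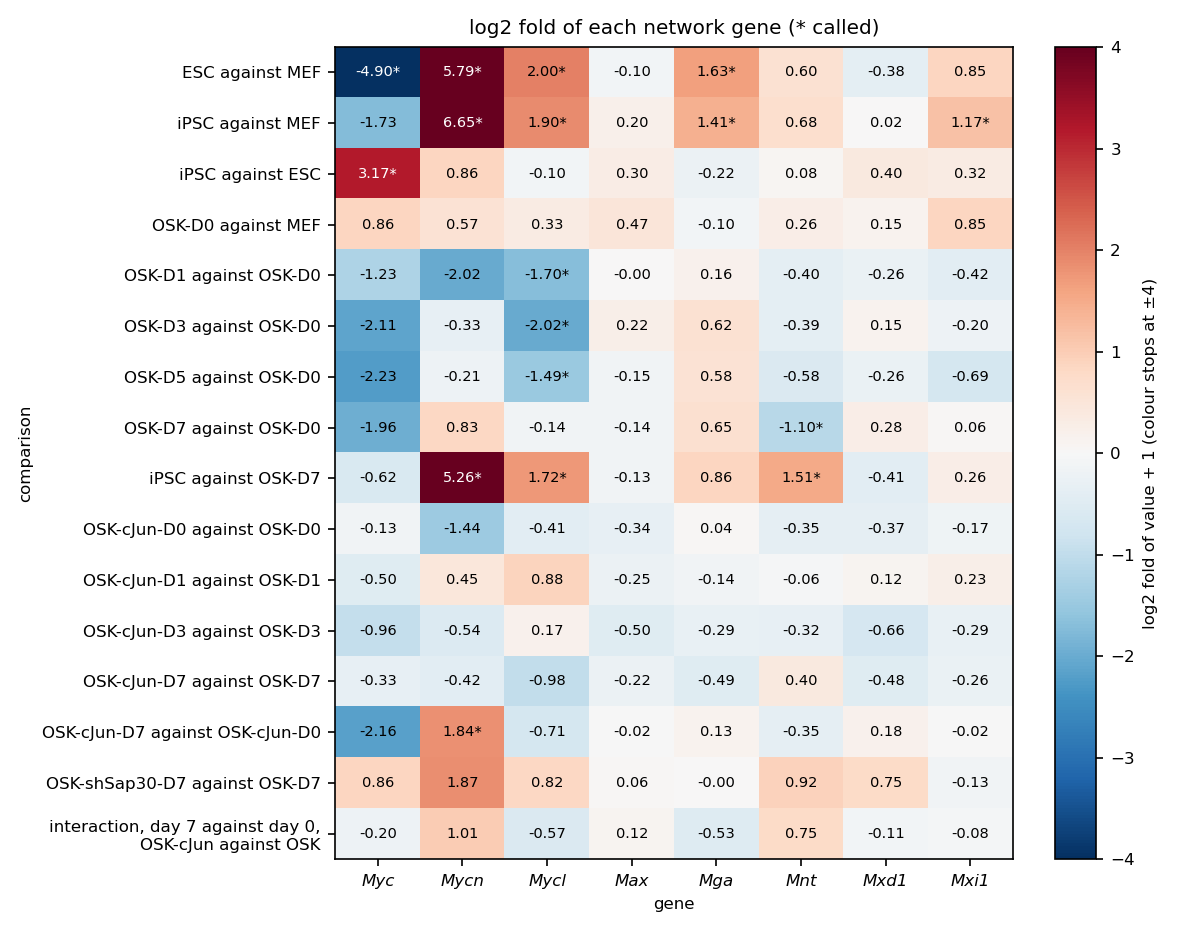
The log2 fold of value + 1 for each network gene (columns) in each comparison (rows), with an asterisk where the gene was called; colour stops at a fold of 4 either way. Mycn, Mycl and Mga are called in both pluripotent groups against MEF, and the Max and Mxd1 columns hold no call.

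Across the 13 group means of log2(value + 1), Mycn varied with Mga (Pearson r 0.91) and Mycl (0.85), and Mga with Myc inversely (-0.77). These describe 13 points that share the split between pluripotent and other cells, and they carry no test. Of all tested genes, those most like Mga were Ulk1 (0.980), an autophagy kinase, Rif1 (0.980), a telomere and replication timing factor, and Arhgap19 (0.978). Those most like Mycn were Cbll1 (0.975), Jmjd1c (0.970) and Sap25 (0.967), and those most like Myc were Col5a2 (0.967), a fibrillar collagen gene, Ebf4 (0.949) and Arhgap24 (0.949). Mycl was most like Slc29a1 (0.958), a nucleoside transporter gene, Tfrc (0.954), the transferrin receptor gene, and Mak16 (0.952). Mnt was most like Ddi2 (0.917), Sfmbt2 (0.911) and Dgke (0.910). The closest gene was Naxe for Max (0.890), Serpinb9g for Mxd1 (0.926) and Scaf4 for Mxi1 (0.869).

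Partners and regulators of the network were followed in lists. Of 13 coactivator and cofactor genes of Myc, 7 rose and 0 fell in ESC against MEF, with a median log2 fold of 1.02 against 0.128 over all genes, of which 22.4% rose and 20.6% fell. Sp1 rose by 1.48 (1216 and 1283 against 457 and 436) and Actl6a, an actin-like subunit of chromatin complexes, by 1.99 (1038 and 984 against 326 and 197). The count was 4 without MEF replicate 2. In the comparisons among infected cells 0 of the 13 were called, where 0.0748% to 23.8% of all genes were called. Of 12 corepressor genes used by Mxd proteins and Mnt, 4 rose and 1 fell in ESC against MEF, a share near that of all genes. The scaffold gene Sin3a rose by 1.53 (856 and 1036 against 378 and 281) and the deacetylase gene Hdac1 by 1.39.

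Of 7 other Max, Mlx and E-box factors, 1 rose and 1 fell in ESC against MEF, against 43.0% of all genes called, and 4 were called without MEF replicate 2. Mxd4, a repressor relative of Mxd1, fell by 4.56 in ESC against MEF (20 and 14 against 321 and 542, adjusted p 1.27e-07) and stood at 31 and 42 in iPSC (fold -3.49). Mlxipl, a glucose-responsive Mlx partner, was listed at 0 in both MEF libraries and stood at 182 and 123 in ESC. In OSK-shSap30 Mxd4 stood at 927 and 719 against 265 and 294 in OSK at day 7 (fold 1.54, SE 0.43, adjusted p 0.024), a call lost without any 1 of those 4 libraries (adjusted p up to 0.117).

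Of the PRC1.6 complex that Mga joins, Wdr5, L3mbtl2 and Rybp rose in the pluripotent groups and Yaf2 fell. Of 13 tested, 6 rose and 2 fell in ESC against MEF, with a median of 0.72, where 22.4% of all genes rose and 20.6% fell. Wdr5, a WD-repeat subunit, rose by 2.67 (2153 and 2313 against 418 and 293), L3mbtl2, a malignant brain tumour domain subunit, by 2.52 (703 and 744 against 140 and 112) and Rybp by 2.16, while its paralog Yaf2 fell by 2.20 (41 and 27 against 137 and 179). From OSK day 0 to day 7, 3 rose and 2 fell, against 11.3% and 12.6% of all genes. Wdr5 rose by 1.50 there (819 and 788 against 277 and 290, adjusted p 1.52e-05). The calls of L3mbtl2, Cbx3 and Yaf2 there were lost in at least 1 alternative each, and the total of 5 was 2 without day 0 replicate 2 and 3 without day 7 replicate 1. At day 7 Wdr5 fell by 1.48 with Jun (253 and 328, adjusted p 7.91e-05). In that comparison 3 of the 13 were lower (Wdr5, Hdac2 and Pcgf6) and 1 was higher (Rnf2), against 5.03% and 6.76% of all genes. The calls of Hdac2, Pcgf6 and Rnf2 were lost in at least 1 alternative each. Wdr5 was also called lower with the Sap30 hairpin, a call lost in 2 of 12 alternatives.
Of 14 germline genes known to be silenced by PRC1.6, Tdrd1 did not pass the filter and Tex101 was not matched. Of the 12 tested, 9 rose and 1 fell in ESC against MEF, where genes at 0 in fibroblasts could pass the filter through the pluripotent libraries alone. Of all genes 22.4% rose and 20.6% fell there. Tex19.1 and Hormad1 were listed at 0 in MEF and stood at 423 and 377, and at 264 and 221, in ESC. Stag3, a meiotic cohesin gene, rose by 3.62. The total of 10 was 6 without ESC replicate 2. From OSK day 0 to day 7 only Tex19.1 of the 12 was called, at 12 and 5 against a listed 0, where 23.8% of all genes were called. Mga and 9 genes of the list were thus both higher in ESC than in MEF.

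Of 30 targets that Myc is known to activate, at least 16 rose in each pluripotent group, and in ESC Myc itself fell. In ESC against MEF 16 rose and 1 fell, with a median of 1.19, where 22.4% of all genes rose and 20.6% fell. In iPSC against MEF 21 rose and 1 fell, with a median of 1.39, where 20.2% of all genes rose and 19.7% fell. Ppat, an enzyme of purine synthesis, rose by 2.32 in ESC (796 and 781 against 192 and 128) and Polr1b, a subunit of RNA polymerase I, by 1.97 (598 and 713 against 184 and 150). The cyclin gene Ccnd2 fell by 8.13 (1 and 19 against 1608 and 1942). MEF replicate 2 weighed on these counts, since without it 9 genes were called in ESC and 14 in iPSC.
From OSK day 0 to day 7 the activated targets had a median fold of 0.55 with 2 called, both higher (Ldha 1.07 and Npm1 1.18), against 23.8% of all genes. Npm1 had 21544, the ceiling of the values, in both day 7 libraries, so its fold is understated. Both calls were lost without day 0 replicate 2, which left 0, while 5 were called without day 0 replicate 1, 4 without day 7 replicate 2 and 4 without the OSK-D5 libraries. With Jun at day 7 the median was -0.78 against OSK, with 1 higher and 2 lower, where 6.76% of all genes were higher and 5.03% lower. Odc1, the first enzyme of polyamine synthesis, was higher (2623 and 4312 against 1226 and 698, fold 1.86) and Npm1 lower (5502 and 5040 against 21544 in both, fold -2.03). The Odc1 call was lost without OSK day 7 replicate 2 (adjusted p 0.107) or OSK-cJun day 7 replicate 2. Called genes numbered 6 without OSK day 7 replicate 2 and 5 without the OSK-D5 libraries. With the Sap30 hairpin Odc1 was also higher (3037 and 3614, fold 1.84), a call lost without OSK day 7 replicate 2 (adjusted p 0.148) or OSK-shSap30 replicate 2.

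Of 12 targets that Myc is known to repress, 7 fell and 0 rose in ESC against MEF, with a median of -2.20. Of all genes 20.6% fell and 22.4% rose there. Cdkn1c and Cdkn2b, cell cycle inhibitor genes, fell by 6.77 (1 and 10 against 612 and 425) and 2.94 (36 and 41 against 224 and 405), and Gas1 fell by 5.60. Several of the list, Thbs1 and Gas1 among them, are fibroblast genes, and the fibroblast marker sum was lower in ESC, at 168 and 639 against 79668 and 83452. Its part in the result was not tested. At OSK day 0 against MEF 6 of the 12 fell and 0 rose, where 2.06% of all genes fell and 4.92% rose. With the spread of the compared groups alone 0 were called there. From OSK day 0 to day 7, 5 fell and 1 rose, against 12.6% and 11.3% of all genes. The direction turned from OSK day 7 to iPSC, where 7 rose and 1 fell (median 1.32), against 14.7% and 15.7% of all genes.

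Of 13 genes that control Myc protein turnover, 2 rose and 0 fell at OSK day 3 against day 0, where 8.55% of all genes rose and 8.69% fell. Huwe1, a ubiquitin ligase with Myc among its substrates, stood at 21544, the ceiling of the values, in both day 3 libraries against 3421 and 6138 (fold 2.23, SE 0.31, adjusted p 4.89e-05). With Jun it was 8995 and 11677 at day 3, below OSK by a fold of -1.07 (adjusted p 0.0368), a call lost without any 1 of those 4 libraries (adjusted p up to 0.252). Both Huwe1 folds are understated by the ceiling. Fbxw7, the ubiquitin ligase subunit that marks Myc for degradation, stood at 389 and 510 at OSK day 3 against 111 and 128 on day 0 (fold 1.89, adjusted p 0.00181). It was also called at day 7 (345 and 313, fold 1.46, adjusted p 0.00872), though not without day 0 replicate 1 (adjusted p 0.0606). It rose by 2.22 from day 0 to day 7 with Jun (486 and 648 against 109 and 132, adjusted p 0.000468). Usp28, a deubiquitinase that counters Fbxw7, rose by 2.55 in ESC (452 and 554 against 104 and 69) and by 2.94 in iPSC (720 and 600). In ESC against MEF 3 of the 13 rose and 0 fell, where 22.4% of all genes rose and 20.6% fell.

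**Figure D4:**
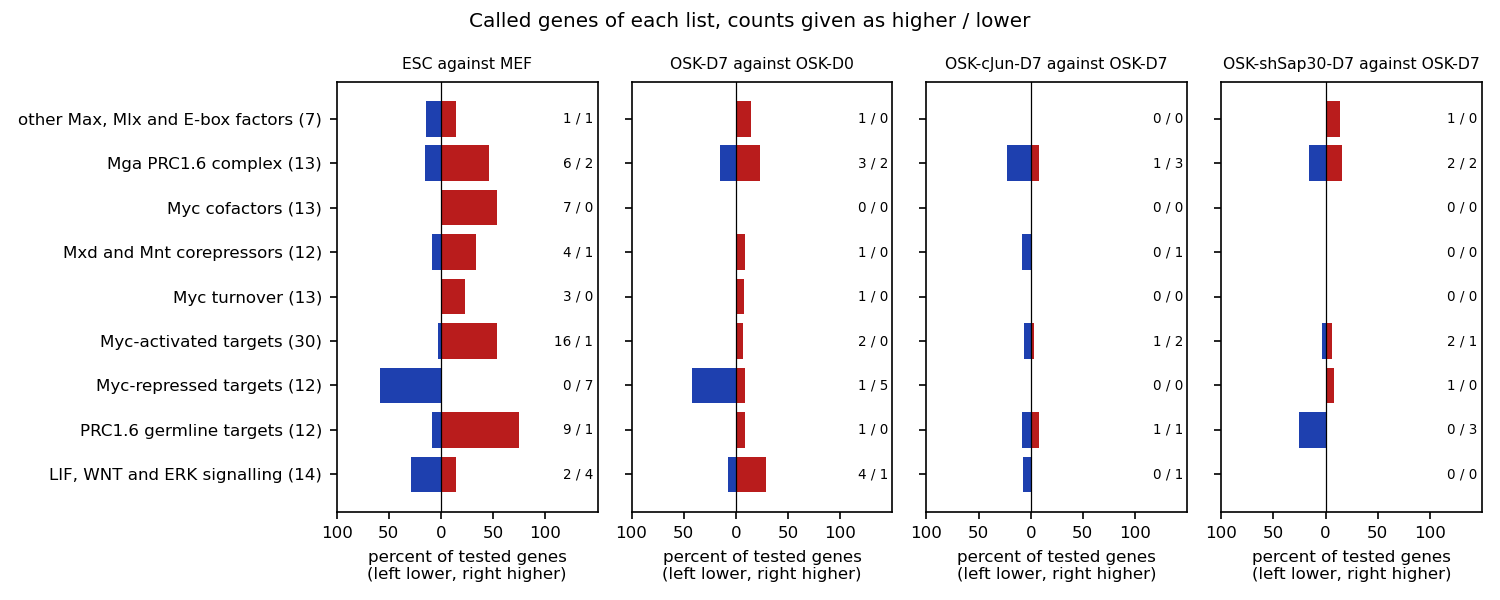
Percent of the tested genes of each list (number in brackets) called higher (red, to the right) or lower (blue, to the left) in 4 comparisons, with the counts printed as higher and lower. In ESC against MEF 16 of 30 Myc-activated targets are higher and 7 of 12 Myc-repressed targets lower, against 22.4% and 20.6% of all genes. No Myc cofactor is called in the other 3 comparisons, where 23.8%, 11.8% and 9.85% of all genes are called.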

How the data were processed

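Per the labels' protocols, TRIzol RNA was made into TruSeq RNA libraries and sequenced on a NextSeq 500. The submitters' processing notes name bcl2fastq, Bowtie2, RSEM and mm10, without versions. The authors deposited a single table of whole-number values that are a normalised score, not counts: sorted values differ between libraries by at most 2 at any rank, and library totals run from 4619641 to 4624161. All 26 columns were mapped to samples and 0 were unused. 159 genes had no symbol.

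Values plus 1 were put on the log2 scale, and the 16038 genes that reached 10 in 2 or more libraries were fitted with limma 3.58.1 in R 4.3.3, 1 mean per group over all 26 libraries, with moderated variances (trended, robust, statmod 1.5.0) and Benjamini-Hochberg adjustment over all tested genes. The files were loaded by the data.table package (1.17.8), figures drawn with matplotlib 3.10.9 in Python 3.11.15, and the fit was tested on simulated data. Levels per kilobase used the union of GENCODE M21 exons. Alternatives were other pseudocounts (0.1 and 10), no filter, median-ratio scaling, a replicate block, other variance estimates, and leaving out libraries.

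The members and lists were chosen with earlier results of these data known. Named genes were the 8 members, up to 4 called genes per list and comparison with the smallest adjusted p, the 3 genes most like each member (model, clone and pseudogene symbols left out), and delivered or targeted genes. Promoter sequences are RefSeq's (GRCm38.p6). Functions of genes are background knowledge.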

Additional observations from a re-analysis of the deposited data

Results flagged for a closer look

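3 partner or target genes changed differently from day 0 to day 7 with added Jun than without it, by limma's test of that difference (interaction). They were 1 of 13 PRC1.6 genes and 2 of 30 Myc-activated targets, and no gene of the other lists was called. Of all genes 3.82% were called, so the count says nothing particular to the lists. Wdr5, listed here with PRC1.6, went from 277 and 290 to 819 and 788 in OSK. In OSK-cJun it went from 315 and 321 to 253 and 328. The log2 difference was -1.64 (SE 0.28, adjusted p 0.00333) and was called in all 16 alternatives run. Hspe1, a mitochondrial chaperonin gene, went from 491 and 382 to 646 and 676 in OSK and from 554 and 447 to 215 and 303 in OSK-cJun, a difference of -1.57 (SE 0.35, adjusted p 0.0169) that was lost in 5 of 16 alternatives. Fbl, the nucleolar methyltransferase gene, went from 440 and 289 to 757 and 633 and from 467 and 403 to 354 and 381, a difference of -1.19 (SE 0.30, adjusted p 0.0319) lost in 9 of 16.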

How the results depend on the processing

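With 2 libraries a group and unknown depth, small differences in genes with low values, such as Mycn before day 7 and Mxd1, were not resolved. Counts of called network genes kept their main value to within 1.5 times in all alternatives other than these. With the spread of the compared groups alone, 0 were called in iPSC against ESC, OSK day 1 against day 0 and OSK day 5 against day 0. With a pseudocount of 10, 2 were called at OSK days 3, 5 and 7 against day 0 and 1 in OSK-shSap30. Without the OSK-D5 libraries, 2 were called at OSK day 3 and 2 at day 7. In OSK-cJun day 7 against day 0, 0 were called with a pseudocount of 0.1 and without the filter. With a pseudocount of 10, without the OSK-D5 libraries or with the spread of the compared groups alone the count there was 1, but the gene was Myc in place of Mycn. With that last setting Myc likewise took the place of Mycl at OSK day 3. Leaving out 1 library gave 0 to 1 in iPSC against ESC, 0 to 1 in OSK day 0 against MEF, 0 to 0 at OSK day 1, 0 to 1 at day 3, 0 to 1 at day 5, 0 to 2 at day 7, 0 to 0 in OSK-cJun day 7 against day 0, and 0 to 1 in OSK-shSap30. It gave 4 to 5 in ESC and 3 to 4 in iPSC against MEF. The cause of each was not tested, beyond the change in samples or genes that the alternative makes.

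Among the network folds that were followed through the alternatives, 6 uncalled ones changed sign, each when 1 library was left out. Not every network fold was followed, so the sign of other small folds may also depend on 1 library. Leaving out 1 library at a time gave a range of -0.40 to 0.20 for Max in ESC against MEF, and of -0.57 to 0.28 for Mycl at OSK day 7 against day 0 (0.08 without day 0 replicate 1). For Myc the range was -1.56 to 0.31 in iPSC against OSK day 7, -0.53 to 0.26 (0.18 without OSK day 0 replicate 1) in OSK-cJun against OSK at day 0, -1.26 to 0.60 (0.03 without OSK-cJun replicate 2) at day 7, and -0.07 to 1.79 in OSK-shSap30. Median-ratio scaling moved the median of all genes in ESC against MEF from 0.128 to 0.019. The numbers of replicates were not shown to pair libraries (median correlation of deviations -0.00127 over 78 pairs of groups, 28 over 0.1), and the fit with a replicate block gave the same count of called network genes in each comparison, 4 in ESC against MEF and 0 in OSK-shSap30.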

Other observations

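Signalling genes of the LIF, WNT and ERK pathways, whose factors act upstream of Myc and Mycn in pluripotent cells, were followed in a list of 14. Of these, 7 rose and 0 fell at OSK day 3 against day 0 (4 in all without day 0 replicate 2), where 8.55% of all genes rose and 8.69% fell, and 4 rose and 1 fell at day 7 (3 in all without that library), where 11.3% rose and 12.6% fell. Stat3, the LIF effector, stood at 1989 and 1860 at day 3 against 781 and 792 (fold 1.29, SE 0.16, adjusted p 1.85e-05). Socs3, its feedback inhibitor, stood at 992 and 764 against 182 and 167 (fold 2.31, adjusted p 0.00025). Axin2, a WNT target, rose from 27 and 17 to 157 and 126 at day 3 and 345 and 384 at day 7 (folds 2.66 and 4.02). With added Jun, Stat3 at day 3 was 914 and 920, below OSK by a fold of -1.07 (adjusted p 0.000413), and Dusp6, a brake on ERK, was 156 and 88 against 596 and 562 (fold -2.29, adjusted p 0.00148). In ESC against MEF 2 of the 14 rose and 4 fell, where 22.4% of all genes rose and 20.6% fell. Il6st, the LIF co-receptor gene, fell by 2.03 there, Dusp6 fell by 4.62 and Axin2 was higher by 4.19. In iPSC against ESC 2 were higher (Dusp6 and Socs3) and 0 lower, where 4.57% of all genes were higher and 1.65% lower. The Dusp6 fold there was 2.59 to 3.47 over 12 alternatives and was called in each.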
